A study of Mus musculus with 4 samples.

Results

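Immediate early genes and heat shock genes were followed in stem cells sorted from the crypts of mouse small and large intestine. The set was a fixed list of 33 gene symbols, 25 immediate early genes and 8 heat shock genes, and all 33 were found among the 55487 genes of the deposited tables, matched through the GENCODE vM21 annotation of GRCm38. All cells came from untreated mice of 6 to 12 weeks with the Lgr5-EGFP-IRES-creERT2 allele, in which Lgr5, a stem cell gene, directs a green reporter and an inducible Cre recombinase. Cells of the small intestine (SISC, 2 libraries), taken near its upper and lower ends, were gated on the reporter and on absence of CD24. Cells of the large intestine (LISC, 2 libraries), taken from cecum to rectum, were gated on the reporter, and the labels state no gate on CD24 there. Poly(A) RNA was sequenced. The labels do not say whether the replicates came from separate mice or from pools, and the spread behind the p-values may therefore be technical only.

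Immediate early genes are switched on within minutes of a stimulus, without new protein synthesis, when MAP kinase, calcium or stress signals reach factors such as SRF, CREB and the ternary complex factors on their promoters. Many encode transcription factors (Fos and Jun proteins, which pair as AP-1, the Egr zinc finger factors and Nr4a1), others encode proteins that shut the response down again, and most of their transcripts are short-lived. Heat shock genes encode chaperones that hold or refold unfolded proteins, and the factor HSF1 raises their transcription under heat or proteotoxic stress. In the gut epithelium these pathways respond to growth factors and injury, and they are also known to respond to the enzymatic and mechanical handling by which tissue is turned into single cells for sorting.

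The genes shared features of structure that the list was not chosen on. The 25 immediate early genes had a median span of 4235 bases on the genome and a median of 3 exons in their most divided transcript, against 19933 bases and 8 exons over the tested genes with an annotation. Of them, 14 were shorter than 5000 bases, from Ier3 with 1240 bases up, whereas 18.8% of all tested genes were. The 8 heat shock genes had a median span of 6782 bases, and Hspa1a, Hspa1b, Jun, Jund, Ier2 and Ier5 had a single exon.

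RefSeq promoter windows (GRCm38.p6, 250 bases before to 50 bases after a gene's start) matched 26 of the 33 genes, 20 immediate early and 6 heat shock genes. The core of the cAMP response element, TGACG on either strand, was present in 11 of the 20 immediate early and 3 of the 6 heat shock genes, and in 23% of all 27025 genes with a window. Its full form, TGACGTCA, which contains that core, was present in Btg2, Dusp1, Maff and Ppp1r15a and in 2.03% of all genes. The CArG box, the motif of SRF, was found in Egr2 and Zfp36 and in 1.81% of all genes. An AP-1 motif, TGACTCA on either strand, was found in none of the 26 and in 5.95% of all genes. The heat shock element GAANNTTCNNGAA, on either strand, was found in Hsph1, where it lay after the start, and in 0.662% of all genes. Only exact matches inside the windows were counted, so that imperfect or more distant elements would be missed. These matches describe the letters of the windows and are no evidence of binding.

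Upstream stretches of 4 immediate early genes whose values are given further on are shown to place these motifs, each with 180 bases that end just before the start, 5′ to 3′ on the gene's own strand, with the response element or its core in capitals. Fos lies at chr12:85473710-85473889 (plus strand), Junb at chr8:84978749-84978928 (minus), Nr4a1 at chr15:101266666-101266845 (plus) and Btg2 at chr1:134079156-134079335 (minus).
Fos: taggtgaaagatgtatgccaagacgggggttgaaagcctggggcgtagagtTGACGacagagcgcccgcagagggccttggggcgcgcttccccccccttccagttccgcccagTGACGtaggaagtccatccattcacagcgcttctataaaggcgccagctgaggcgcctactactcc
Junb: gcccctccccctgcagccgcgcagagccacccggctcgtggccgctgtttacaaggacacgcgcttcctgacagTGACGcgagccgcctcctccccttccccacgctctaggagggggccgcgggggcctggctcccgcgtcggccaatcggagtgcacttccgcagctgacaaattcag
Nr4a1: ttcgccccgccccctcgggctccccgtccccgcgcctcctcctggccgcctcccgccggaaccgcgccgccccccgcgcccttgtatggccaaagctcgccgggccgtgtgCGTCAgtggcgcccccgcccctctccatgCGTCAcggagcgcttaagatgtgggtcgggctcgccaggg
Btg2: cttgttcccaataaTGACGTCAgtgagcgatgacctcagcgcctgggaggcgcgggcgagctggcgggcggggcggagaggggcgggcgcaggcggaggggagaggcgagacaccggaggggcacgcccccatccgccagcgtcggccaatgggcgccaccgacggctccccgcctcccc

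Library totals ran from 12795434 to 27227715 expected counts. On these totals, before TMM adjustment, 0 counts in a library would still allow 3 counts, or 0.110 to 0.234 CPM. Ribosomal RNA, with that of mitochondria included, made up 31.8% (SISC) and 36.6% (LISC) of the counts of the replicate 1 libraries. In replicate 2 it made up 0.246% (SISC) and 0.304% (LISC), a difference that runs with the replicate number and not with the intestine. Levels below are counts divided by the TMM-adjusted library size (CPM), unless TPM, which is also scaled by length, is named. Epithelial markers were high in all 4 libraries (summed CPM of 7 genes from 5003 to 6841), and the reporter gene's host Lgr5 was at 89.7 to 173 CPM. The 7 crypt stem cell markers, Lgr5 among them, summed to 1198 and 1295 CPM in SISC replicates 1 and 2. In LISC replicates 1 and 2 they summed to 850 and 589 CPM. All 7 were estimated lower in LISC, as were 52.0% of all tested genes, and Smoc2 and Axin2 differed most (log2 −1.40 and −1.41). The summed level of 16 leukocyte markers was 7.04 to 10.7 CPM and that of 16 stromal and endothelial markers 5.97 to 12.6 CPM, with Lum, Des, Kdr and S100b at 0 counts in each library. Markers of Paneth cells, the secretory cells that sit between the small-intestinal stem cells, were far from even. The summed level of 6 such genes was 7075 and 1217 CPM in SISC replicates 1 and 2 and 45.8 and 23.2 CPM in LISC replicates 1 and 2. All 7 goblet cell markers were higher in SISC replicate 1 than in SISC replicate 2 (summed CPM 2051 and 449), and their sum was higher still in LISC (3325 and 5655).

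Immediate early transcripts were more abundant in SISC than in LISC, and most abundant in SISC replicate 1. The 25 genes together were read at 9156 and 3372 CPM in SISC replicates 1 and 2 and at 2607 and 1534 CPM in LISC replicates 1 and 2. Both SISC libraries thus stood above both LISC libraries, but the SISC libraries were further apart from each other than SISC replicate 2 was from either LISC library. The 8 heat shock genes together were read at 5248 and 6004 CPM (SISC) and 2832 and 4508 CPM (LISC), with replicate 2 the higher library in each intestine. Hspa8 and Hsp90aa1 carried that order, with summed levels of 2880 and 4557 CPM (SISC) and 1895 and 3614 CPM (LISC). The other 6 heat shock genes summed to 2368 and 1447 CPM (SISC) and 936 and 895 CPM (LISC), and 5 of them were lower in SISC replicate 2 than in SISC replicate 1. In bulk RNA, fewer cells with a transcript and less of it per cell cannot be told apart.

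**Figure D1:**
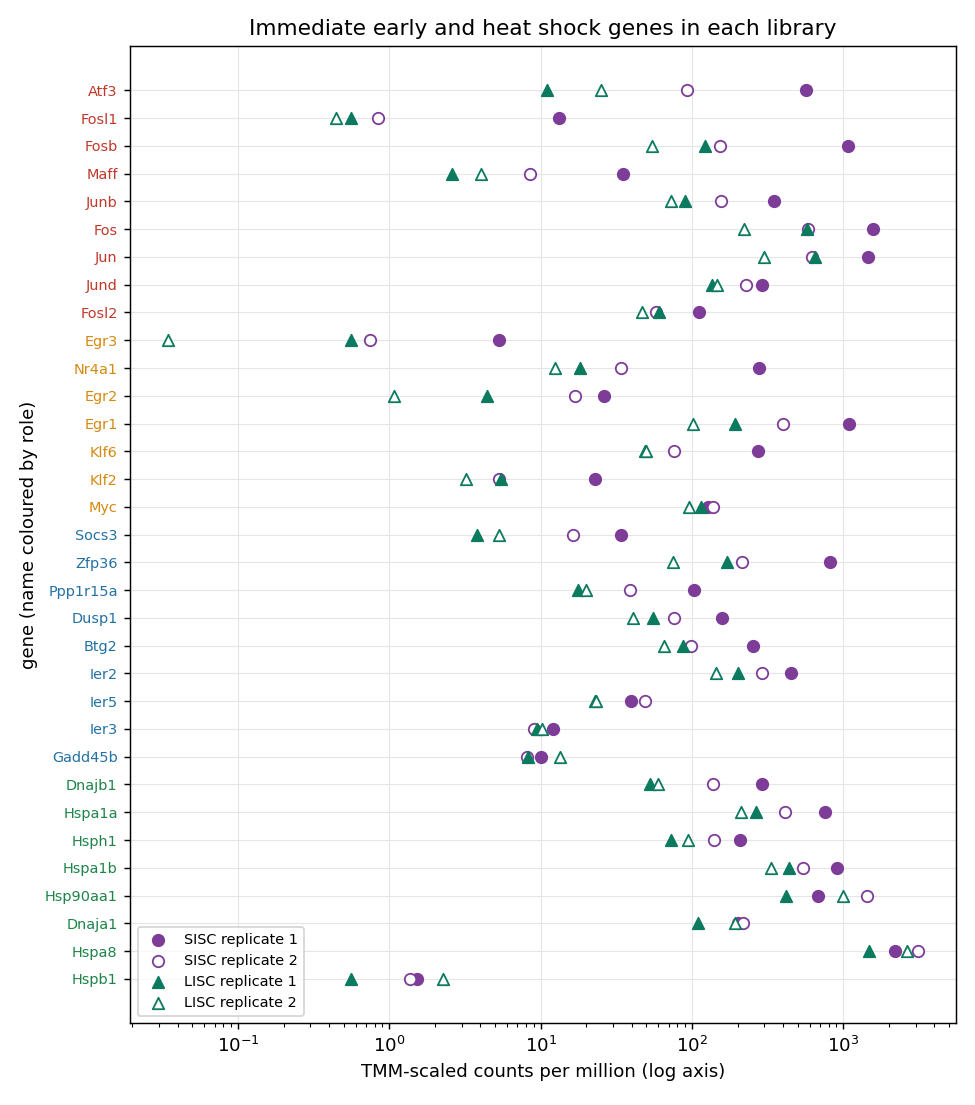
TMM-scaled CPM (log axis) of the 33 genes in each of the 4 libraries, with circles for SISC, triangles for LISC, filled symbols for replicate 1 and open symbols for replicate 2. Names are coloured by role (red for AP-1 and related factors, orange for the other factors, blue for feedback regulators and Ier genes, green for heat shock genes). For 25 of the 33 genes both circles lie to the right of both triangles, and for most immediate early genes the filled circle lies far to the right.

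The comparison of LISC with SISC asked how the stem cells of both intestines differ in expression. In edgeR's quasi-likelihood test over 14165 genes, none of the 33 genes passed an adjusted p of 0.05 in either direction, where 0.741% of all tested genes were called lower in LISC. At an unadjusted p below 0.05, 19 of the 33 (57.6%) were lower in LISC and 0 were higher, against 4.67% of all tested genes that were lower. DESeq2 called 14 of the 33 lower in LISC and 0 higher, against 2.81% of all tested genes: Fosb, Fosl1, Junb, Atf3, Maff, Egr1, Egr2, Nr4a1, Klf6, Zfp36, Ppp1r15a, Socs3, Hspa1a and Dnajb1. An edgeR fit with the replicate number as a block called 16, against 3.70% of all tested genes: Fos, Fosb, Jun, Junb, Jund, Egr1, Egr2, Egr3, Ier2, Ier5, Zfp36, Dusp1, Ppp1r15a, Socs3, Hspa1a and Dnajb1. The labels do not say what a shared number stands for. For 25 genes (75.8%) both SISC libraries lay above both LISC libraries, which held for 18.4% of all tested genes. The reverse arrangement held for 0 of the 33 and for 21.9% of all tested genes. All 33 passed the filter on low counts, so that these counts cover the whole list.

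The median log2 difference, LISC minus SISC, was −1.70 over the immediate early genes and −0.75 over the heat shock genes, against −0.02 over all tested genes. The value for the immediate early genes moved most with SISC replicate 1 and SISC replicate 2. Without that library the median of the immediate early genes was −0.77 and 0 genes were called, and without SISC replicate 2 it was −2.43 and 6 were called (Fosl1, Atf3, Maff, Nr4a1, Ppp1r15a and Socs3), as were 0.921% of all tested genes. Without LISC replicate 1, Egr2 alone was called, with 0.703% of all tested genes. SISC replicate 1 was also the library with the highest Paneth cell marker level, given above; the part of these cells in the difference was not tested. CD24 is known as a surface protein of Paneth cells, and the SISC gate was set on its absence. The 6 Paneth cell markers were read at summed levels of 7075 and 1217 CPM in SISC replicates 1 and 2. How far the gate removed these cells was not tested.

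**Figure D2:**
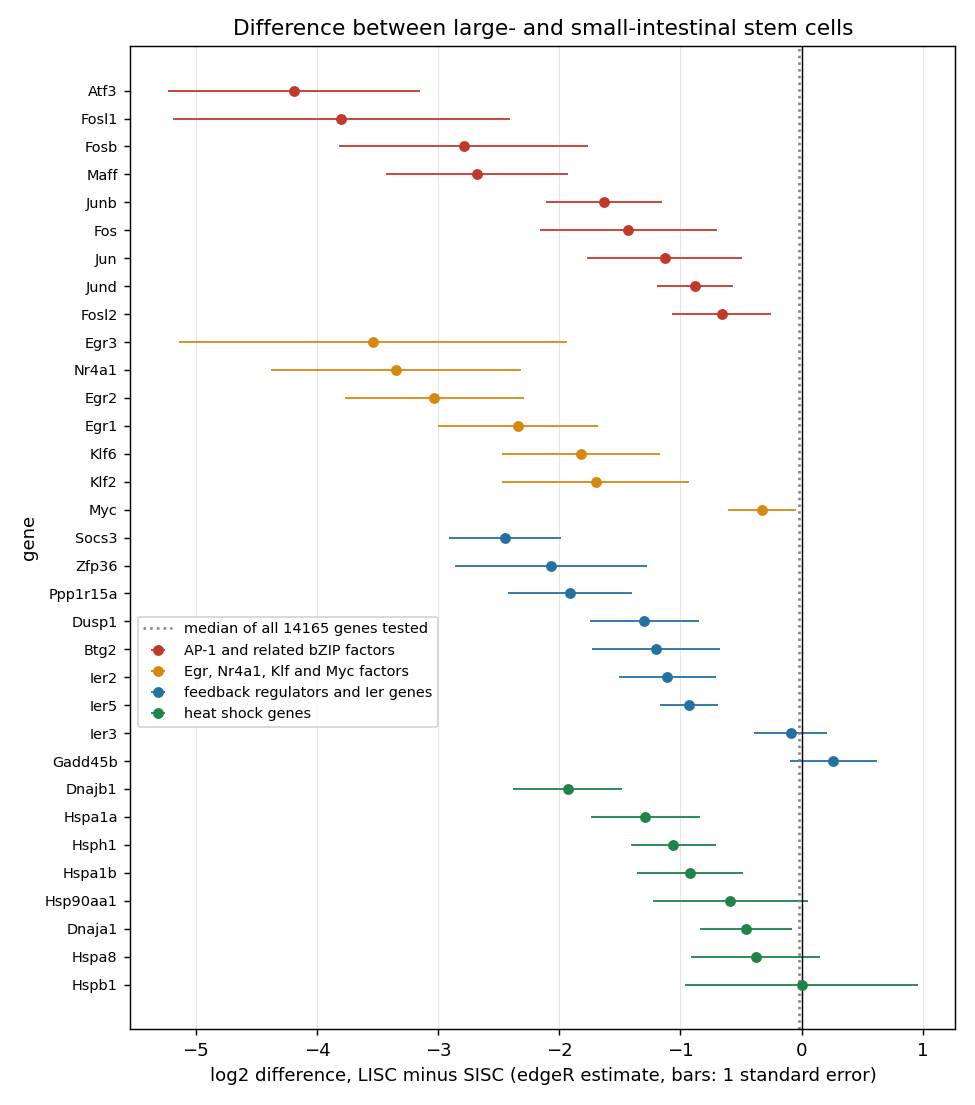
Log2 difference LISC minus SISC for the 33 genes, as estimated by edgeR, with bars of 1 standard error and colours by role. The dotted line is the median of all 14165 genes tested, at −0.02. Of the 33 points 32 lie at or below 0, from −4.19 for Atf3, and Gadd45b lies at 0.26.

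Among the AP-1 genes, which encode the leucine zipper proteins that pair to bind DNA, Fos was read at 1564 and 586 CPM in SISC replicates 1 and 2 and at 574 and 222 CPM in LISC replicates 1 and 2. LISC replicate 1 and SISC replicate 2 were nearly level, and the log2 difference of −1.43 ± 0.73 (SE) did not pass (edgeR adjusted p = 0.553). Within replicate 1 and within replicate 2 Fos differed by −1.45 and −1.40, and the fit with the replicate block called it (log2 −1.42, edgeR adjusted p = 0.0110). Without SISC replicate 1 the difference was −0.57. Values below are given in this order, replicate 1 before replicate 2. Fosb, its close relative, was read at 1070 and 152 CPM (SISC) and 122 and 54.7 CPM (LISC). SISC replicate 1 stood apart here, and the groups did not overlap (log2 −2.79 ± 1.03, and −0.79 without SISC replicate 1).

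Jun, the main partner of Fos, was read at 1465 and 617 CPM (SISC) and 652 and 301 CPM (LISC). Its groups overlapped, since LISC replicate 1 lay above SISC replicate 2. Its log2 difference of −1.13 ± 0.64 was −0.38 without SISC replicate 1, while the fit with the replicate block called the gene (log2 −1.10, edgeR adjusted p = 0.0254). Junb, a Jun protein that is often a weaker activator, was read at 348 and 156 CPM (SISC) and 90.3 and 72.7 CPM (LISC). Jund, the most steadily expressed Jun protein, was read at 289 and 229 CPM (SISC) and 135 and 147 CPM (LISC). Junb and Jund were lower in both LISC libraries, by an estimated log2 difference of −1.63 ± 0.48 for Junb (edgeR adjusted p = 0.216) and of −0.88 ± 0.31 for Jund. The fit with the replicate block called both (edgeR adjusted p = 0.0182 for Junb and 0.0416 for Jund). Fosl2, a Fos relative, overlapped between groups, at 112 and 57.7 CPM (SISC) and 60.2 and 47.0 CPM (LISC).

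Atf3, a stress-induced factor that can pair with Jun, had the largest difference of the 33 genes. It was read at 566 and 92.1 CPM (SISC) and 11.0 and 24.9 CPM (LISC), an estimated log2 difference of −4.19 ± 1.04 (edgeR adjusted p = 0.150). Within replicate 1 the difference was −5.67 and within replicate 2 it was −1.89, and DESeq2 called the gene (log2 −4.25, DESeq2 adjusted p = 7.26e-06). Maff, a small Maf protein, followed the same order of libraries, at 35.1 and 8.56 CPM (SISC) and 2.59 and 4.06 CPM (LISC). Fosl1, whose mean over the 4 libraries was under 5 CPM, was read at 13.2 CPM in SISC replicate 1 and at 0.447 to 0.843 CPM in the other libraries. Its log2 difference of −3.80 ± 1.39 therefore rested on SISC replicate 1, and it was −0.77 without that library.

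Among the Egr zinc finger factors, which act downstream of MAP kinase signalling, Egr1 was read at 1086 and 402 CPM (SISC) and 192 and 101 CPM (LISC). The groups did not overlap, and the log2 difference was −2.34 ± 0.66 (edgeR adjusted p = 0.197; DESeq2 adjusted p = 0.00218). Egr2 was read at 26.1 and 16.9 CPM (SISC) and 4.45 and 1.07 CPM (LISC). Its SISC libraries were closer to each other than those of most immediate early genes, and its difference of −3.03 ± 0.74 was larger within replicate 2 (−3.88) than within replicate 1 (−2.53). Egr2 was called under 5 of the 9 alternatives that kept all libraries, more than any other gene of the list. Egr3 had 73.0 and 24.0 expected counts in SISC and 6 and 1 in LISC, so that its ratio of 11.7 between SISC and LISC rests on few reads.

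Nr4a1, a nuclear receptor gene that many stimuli induce, was read at 278 and 34.0 CPM (SISC) and 18.1 and 12.4 CPM (LISC). SISC replicate 1 was 8.14-fold above SISC replicate 2, and SISC replicate 2 was still above both LISC libraries. The log2 difference of −3.35 ± 1.03 was −1.17 without SISC replicate 1. Klf6, a Krüppel-like factor, had the same shape, with 274 CPM in SISC replicate 1, 75.8 CPM in SISC replicate 2 and 48.9 and 49.9 CPM in LISC, and its difference of −1.82 ± 0.65 was −0.63 without SISC replicate 1. The related Klf2, a gene best known from endothelium and lymphocytes, was at 22.9 and 5.28 CPM (SISC) and 5.47 and 3.23 CPM (LISC), and its groups overlapped. Myc, a Wnt target in the crypt as well as an immediate early gene, was nearly even at 127 and 137 CPM (SISC) and 115 and 95.6 CPM (LISC), an estimated log2 difference of −0.33 ± 0.28 (edgeR adjusted p = 0.825).

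Of the 9 feedback regulators and Ier genes, 8 had estimates below 0, as did 52.0% of all tested genes, and 6 were lower in LISC at an unadjusted p below 0.05, as were 4.67% of all tested genes. Socs3, an inhibitor of cytokine receptor signalling, was read at 34.2 and 16.3 CPM (SISC) and 3.80 and 5.33 CPM (LISC). Its log2 difference of −2.45 ± 0.46 had the smallest p of the 33 genes and still missed the threshold (edgeR adjusted p = 0.0864); DESeq2 called it (adjusted p = 0.000197). Ppp1r15a, which directs a phosphatase to eIF2-alpha and so lifts stress-induced translation arrest, was read at 103 and 39.0 CPM (SISC) and 17.6 and 20.0 CPM (LISC) (log2 −1.91 ± 0.51). For both genes the LISC libraries lay close together and below SISC replicate 2.

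Zfp36, which encodes the mRNA-destabilizing protein tristetraprolin, was read at 813 and 215 CPM (SISC) and 171 and 75.1 CPM (LISC). Dusp1, a phosphatase that turns off MAP kinases, was read at 159 and 76.6 CPM (SISC) and 55.4 and 40.5 CPM (LISC). Btg2, an antiproliferative gene, was read at 252 and 97.9 CPM (SISC) and 87.7 and 65.0 CPM (LISC). In these 3 genes the libraries ranked in the same order, SISC replicate 1, SISC replicate 2, LISC replicate 1, LISC replicate 2, and the log2 differences were −2.07 ± 0.79, −1.30 ± 0.45 and −1.20 ± 0.53. Without SISC replicate 1 they were −0.82, −0.68 and −0.37.

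Of the Ier genes, Ier2 was read at 453 and 290 CPM (SISC) and 200 and 143 CPM (LISC). Ier5, which can act on HSF1, was read at 39.3 and 48.6 CPM (SISC) and 22.8 and 23.3 CPM (LISC), an estimated log2 difference of −0.93 ± 0.24 with little spread in either group (edgeR adjusted p = 0.163, and 0.0242 with the replicate block). Ier3, a survival gene, did not separate the groups, at 12.0 and 9.03 CPM (SISC) and 9.45 and 10.2 CPM (LISC). Gadd45b, a growth arrest gene, had the only estimate above 0, at 10.1 and 8.12 CPM (SISC) and 8.25 and 13.5 CPM (LISC) (log2 0.26 ± 0.36), and its groups overlapped. Ier3 and Gadd45b were thus nearly even between the intestines, with estimates no larger than their standard errors (−0.09 ± 0.30 for Ier3).

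Of the 8 heat shock genes, 5 had both SISC libraries above both LISC libraries, as had 18.4% of all tested genes. At an unadjusted edgeR p below 0.05, 3 were lower in LISC, as were 4.67% of all tested genes. Dnajb1, an Hsp40 co-chaperone strongly induced by HSF1, was read at 292 and 137 CPM (SISC) and 52.7 and 59.3 CPM (LISC), an estimated log2 difference of −1.93 ± 0.45 (edgeR adjusted p = 0.136; DESeq2 adjusted p = 0.00104). Hsph1, an Hsp110 nucleotide exchange factor, was read at 208 and 139 CPM (SISC) and 72.6 and 93.8 CPM (LISC). Both genes were lower in each LISC library than in either SISC library.

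Hspa1a and Hspa1b encode the stress-inducible Hsp70 and lie 9951 bases apart on chromosome 17 (GRCm38, Hspa1b at 34956436 to 34959238 and Hspa1a at 34969190 to 34972156, both on the minus strand). Hspa1a was read at 759 and 409 CPM (SISC) and 266 and 211 CPM (LISC) (log2 −1.29 ± 0.45), and Hspa1b at 909 and 544 CPM (SISC) and 435 and 335 CPM (LISC) (log2 −0.92 ± 0.44). Their groups did not overlap. The annotated coding sequences are identical at 1915 of 1923 aligned bases, so that many reads fit both copies and RSEM divided them. RSEM's posterior SD of the count was 54.1 reads for either gene in SISC replicate 1, where Hspa1a had 10429 expected counts, but that SD covers the division of reads only, not error in the model. Summed, the pair was read at 1668 and 953 CPM (SISC) and 701 and 546 CPM (LISC), an estimated log2 difference of −1.07 ± 0.47 (edgeR adjusted p = 0.457). The 180 bases upstream of the copies, at chr17:34972157-34972336 for Hspa1a and chr17:34959239-34959418 for Hspa1b (both minus strand, RefSeq, GRCm38.p6), are shown because the likeness of the pair extends into the promoter, with the 1 differing base in capitals.
Hspa1a: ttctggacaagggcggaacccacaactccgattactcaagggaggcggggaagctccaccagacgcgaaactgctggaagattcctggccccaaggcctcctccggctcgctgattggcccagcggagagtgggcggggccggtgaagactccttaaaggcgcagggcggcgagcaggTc
Hspa1b: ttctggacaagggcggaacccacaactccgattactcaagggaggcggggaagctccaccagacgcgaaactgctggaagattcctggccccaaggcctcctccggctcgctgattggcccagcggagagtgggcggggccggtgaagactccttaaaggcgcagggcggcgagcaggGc

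Other chaperones are also made in unstressed cells. Hspa8, the constitutive Hsc70, was read at 2201 and 3114 CPM (SISC) and 1480 and 2618 CPM (LISC). Hsp90aa1, the inducible cytosolic Hsp90, was read at 678 and 1443 CPM (SISC) and 416 and 995 CPM (LISC). Dnaja1, an Hsp40 partner of Hsc70, was read at 200 and 216 CPM (SISC) and 109 and 193 CPM (LISC). For Hspa8 and Hsp90aa1 the groups overlapped and replicate 2 was the higher library in both intestines, while Dnaja1 was lower in both LISC libraries. The log2 differences of −0.38 ± 0.53 for Hspa8, −0.59 ± 0.64 for Hsp90aa1 and −0.46 ± 0.38 for Dnaja1 did not pass (edgeR adjusted p = 0.957, 0.913 and 0.826). Hspb1, a small heat shock protein gene under 5 CPM, had 6.00 to 66.0 expected counts and an estimated log2 difference of 0.00 ± 0.96.

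Within replicate number 1 and within number 2, each a difference between single libraries with no test, the direction was mostly shared but the size was not. The median log2 difference of the immediate early genes was −2.05 within replicate 1 but −1.03 within replicate 2. For the heat shock genes it was −1.19 and −0.55, while the median of all tested genes was 0.00 in both. The difference was more negative within replicate 1 for 30 of the 33 genes, the exceptions being Egr2, Myc and Ier5. This was not counted over all tested genes, so that the count only describes the list. At least 2-fold lower in LISC within both numbers were 14 of the 33 genes (42.4%), against 3.83% of all tested genes. They were Fos, Fosb, Jun, Junb, Atf3, Maff, Egr1, Egr2, Egr3, Nr4a1, Ier2, Zfp36, Socs3 and, as the only heat shock gene, Dnajb1.

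**Figure D3:**
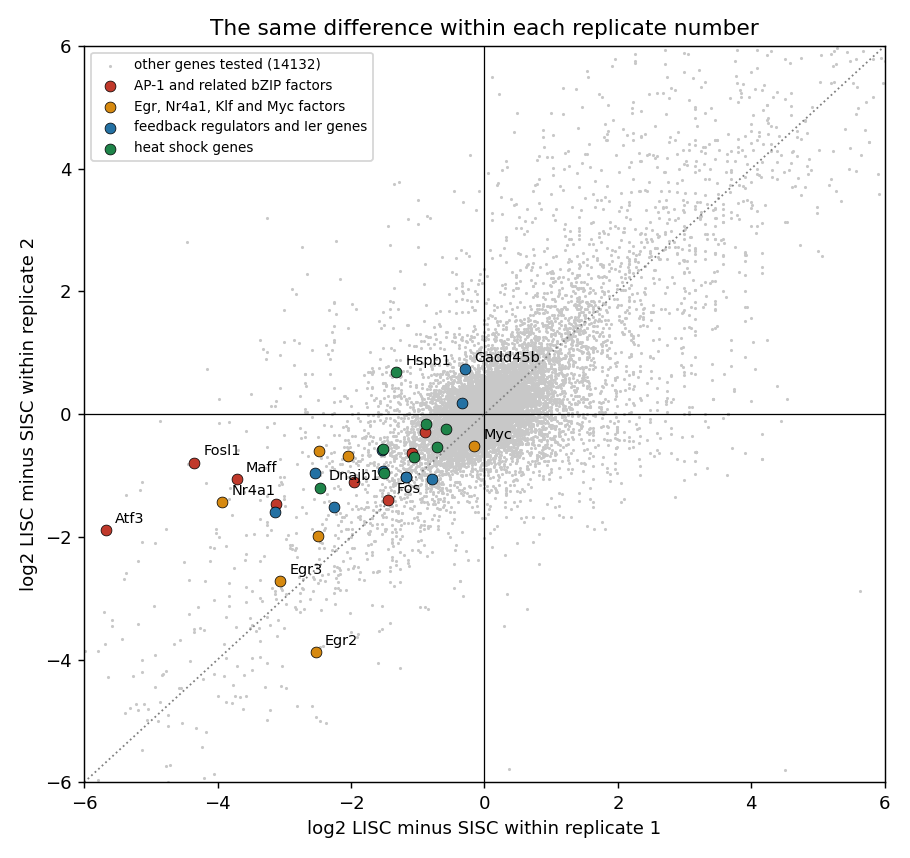
Log2 difference LISC minus SISC within replicate 1 (horizontal) and within replicate 2 (vertical), for the 33 genes (coloured by role) and the other genes tested (grey, 160 of them outside the axes). The dotted diagonal marks equal differences. Of the 33 points 30 lie above it, on the side of the more negative difference in replicate 1 (not counted for the grey genes).

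The libraries of a group differed from each other in these genes, and this difference was itself uneven between the intestines. In SISC, 23 of 25 immediate early genes were lower in replicate 2 than in replicate 1 (median log2 −1.37), with Myc and Ier5 as exceptions. In LISC 16 of the 25 were (median −0.36). The median over all tested genes was 0.02 in SISC and 0.08 in LISC. The share of all tested genes lower in replicate 2 was not counted. With unscaled TPM, which shifts the median of all tested genes by 0.52 in SISC and 0.84 in LISC, the counts were 20 and 6. With TPM centred on that median, and with DESeq2's size factors, they were 23 and 18. Fosl1 (14.2-fold), Nr4a1 (8.14-fold), Fosb (7.04-fold), Egr3 (6.41-fold) and Atf3 (6.14-fold) had the largest excess in SISC replicate 1 over SISC replicate 2. Atf3 and Maff went the other way in LISC, where replicate 2 exceeded replicate 1 by 1.17 and 0.63 on the log2 scale. Whether the intestines differ in this respect was not tested, since each holds 1 library per number.

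At least 2-fold higher in replicate 1 in both intestines were Fos, Fosb, Jun, Egr3 and Zfp36, which are 5 of the 33 genes (15.2%), against 5.34% of all tested genes. Fos, for example, was 2.67-fold higher in SISC and 2.58-fold higher in LISC replicate 1. Hsp90aa1 alone was at least 2-fold higher in replicate 2 in both, against 4.18% of all tested genes. With TPM the counts were 0 and 3, against 0.974% and 19.0% of all tested genes. With TPM differences centred on their median over all tested genes they were 2 and 1, against 2.61% and 3.15%. The replicate 1 libraries were those with the high ribosomal RNA share given above; its part in these differences was not tested.

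**Figure D4:**
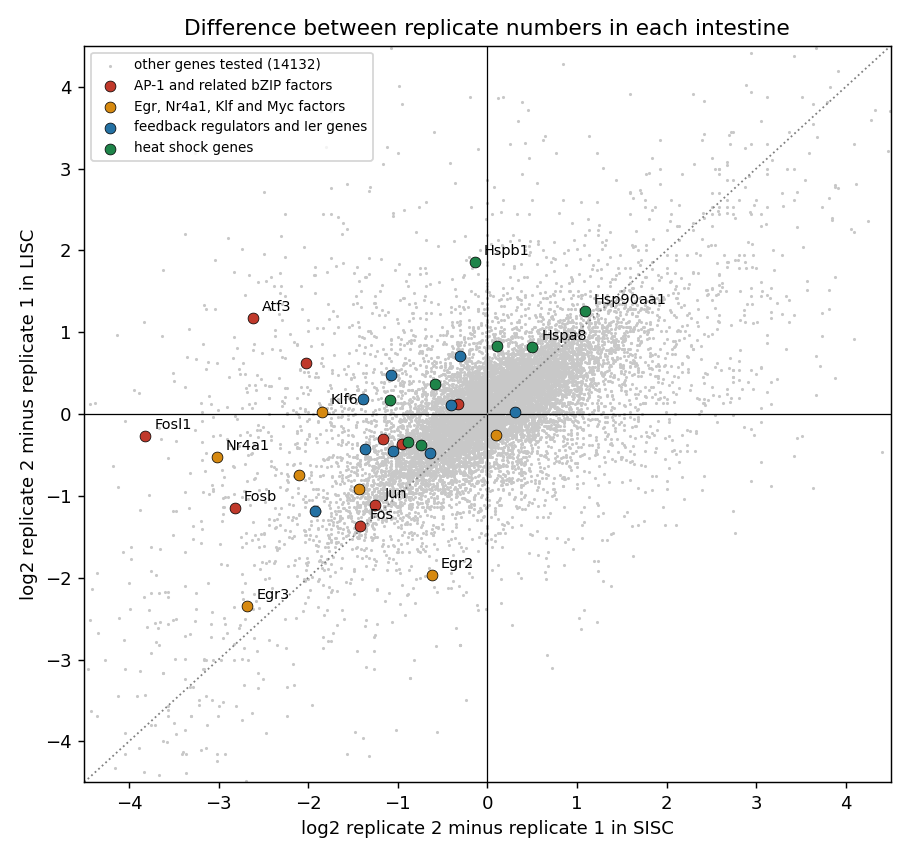
Log2 difference replicate 2 minus replicate 1 in SISC (horizontal) and in LISC (vertical), from TMM-scaled CPM, for the 33 genes and the other genes tested (grey, 153 outside the axes). Fos, Jun, Fosb and Egr3 lie in the lower left, below −1 on both axes, Atf3 lies in the upper left, and Hsp90aa1 lies in the upper right.

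On the length-scaled TPM values, which allow genes to be compared with each other, Hspa8 led the list in each library (921 and 2030 TPM in SISC, 494 and 1867 TPM in LISC). Fos was the immediate early gene with the highest TPM in each library (601 and 373 TPM in SISC, 206 and 155 TPM in LISC). Jun came next among the immediate early genes in SISC replicate 1 and in LISC replicate 1, at 348 and 137 TPM. The TPM of Hsp90aa1 moved far more than its CPM between replicate numbers, from 168 to 1176 TPM in SISC and from 109 to 853 TPM in LISC. Its deposited length, an average over transcripts weighted by their estimated share, was 3063 and 2603 bases in SISC and LISC replicate 1 but 1625 and 1666 bases in SISC and LISC replicate 2. Atf3 and Dnaja1 had longer deposited lengths in replicate 1 as well, at 1984 against 1570 bases in SISC for Atf3 and 2384 against 1909 bases for Dnaja1. Other genes of the list had shorter lengths in replicate 1, such as Egr2 (2631 against 2944 bases in SISC) and Fosl2 (5901 against 6366 bases in SISC). The single-exon gene Jun had 3189 bases in each library.

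Other genes of these pathways came from lists drawn up for this comparison. Of 32 genes of the MAP kinase, SRF and CREB input, 0 were called by edgeR, and their median log2 difference was −0.06. At an unadjusted edgeR p below 0.05, 0 were lower in LISC, against 4.67% of all tested genes, and 1 was higher. Srf, which encodes the factor that binds the CArG box, was read at 101 and 30.4 CPM (SISC) and 28.4 and 23.2 CPM (LISC), so that SISC replicate 1 alone stood apart. The SRF coactivator genes Mrtfa and Mrtfb were higher in replicate 1 in both intestines, Mrtfb 2.32-fold in SISC and 1.82-fold in LISC.

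Of 43 further immediate early or closely related genes 41 were tested, and again 0 were called by edgeR. At an unadjusted p below 0.05, 15 were lower in LISC (4.67% of all tested genes were) and 2 higher, and the median difference was −0.72. For 25 of the 41 both SISC libraries lay above both LISC libraries, as for 18.4% of all tested genes. Csrnp1, a nuclear factor gene, was read at 65.2 and 6.31 CPM (SISC) and 1.48 and 2.47 CPM (LISC) (log2 −4.13 ± 1.19). Dusp5, a phosphatase that acts on nuclear ERK, was read at 54.2 and 13.8 CPM (SISC) and 1.39 and 2.54 CPM (LISC), an estimated log2 difference of −4.06 ± 0.80 (edgeR adjusted p = 0.0937). The order of libraries in Csrnp1 and Dusp5 was that of Atf3. Arc, a neuronal activity gene, followed the replicate number instead, with 41.3 and 26.8 CPM in SISC and LISC replicate 1 and 9.09 and 3.13 CPM in replicate 2, and Cebpb went the opposite way, at 4.73 and 5.19 CPM in replicate 1 and 30.3 and 14.9 CPM in replicate 2.

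Of 38 further chaperones and HSF1-related genes 35 were tested and 0 were called by edgeR (median log2 difference −0.19). An unadjusted edgeR p below 0.05 was found for 0 of them, against 1899 of all 14165 tested genes. Hsf1 itself was read at 55.6 and 34.3 CPM (SISC) and 38.2 and 32.2 CPM (LISC). Hspa13, an Hsp70-like gene, was read at 17.4 and 15.8 CPM (SISC) and 19.8 and 28.3 CPM (LISC), with a log2 difference of 0.54 ± 0.29 (edgeR adjusted p = 0.584). Hspe1, the mitochondrial Hsp10 gene, and Bag1, a co-chaperone gene of Hsp70, were higher in replicate 2 in both intestines, Bag1 at 102 and 276 CPM (SISC) and 113 and 271 CPM (LISC). Neither Hspe1 nor Bag1 separated the intestines.

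Of 23 genes of the endoplasmic reticulum and integrated stress responses 21 were tested and 0 were called by edgeR (median difference 0.17). At an unadjusted edgeR p below 0.05, 2 were lower in LISC, against 4.67% of all tested genes, and 2 were higher. Over all 14165 tested genes, 1899 had such a p in either direction, and 662 of these were lower. Asns, the asparagine synthetase gene and an ATF4 target, was read at 56.0 and 61.3 CPM (SISC) and 25.8 and 24.6 CPM (LISC) (log2 −1.22 ± 0.23, edgeR adjusted p = 0.0891). Nupr1, another stress-induced gene, was read at 16.6 and 3.94 CPM (SISC) and 8.25 and 34.1 CPM (LISC), with no common order of the libraries. Hsp90b1, the Hsp90 of the endoplasmic reticulum, differed by 0.17 ± 0.44, and Hyou1, an Hsp110 of the same compartment, by 0.03 ± 0.52.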

How the data were processed

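The authors deposited gene-level expected counts from RSEM, which splits reads shared by several genes, and TPM values, scaled by effective length, per the file headers. Per the submitters' processing notes, STAR 2.7.2b, RSEM 1.2.31 and the build GRCm38 (mm10) were used. For annotation release, strand setting and trimming: not given in the sources used here. Directional poly(A) libraries were made, per the labels' protocols.

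Groups and replicate numbers came from the titles. Expected counts were rounded, filtered with filterByExpr (minimum count 10), scaled with TMM and fitted with edgeR 4.0.16 in R 4.3.3 (quasi-likelihood, group as the only term), with Benjamini-Hochberg adjustment over 14165 genes. Standard errors are the log2 difference divided by the square root of F. Values within a replicate number use a prior count of 2. Alternatives used DESeq2 1.42.0, limma 3.58.1, other filters and scalings, a replicate block and each library left out. The fits were also run on simulated counts, with less spread than these data and no effect of the replicate number. That run therefore does not show how the fits perform on these data. Exact permutation of 2 against 2 libraries cannot go below a two-sided p of 0.333. The members and lists were chosen with earlier results of these data known. Values per library are given for members with a mean of at least 5 CPM; of each pathway list, called genes or else the 2 with the largest difference between intestines and the 2 between replicate numbers at 10 CPM or more. A gene that this rule names is not reported here. Fosl1, Egr3, Hspb1 and Hsf1 were added after their values were seen. For Ddit3, with 2 identifiers, the one with more counts was used. Mrtfa, Mrtfb, Ccn1 and Ccn2 were matched through older symbols.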

Additional observations from a re-analysis of the deposited data

How the results depend on the processing

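The count of members called lower in LISC depended on the test. It was 0 with edgeR's quasi-likelihood test, with DESeq2's size factors in it, with at least 1 CPM required in all libraries and with ribosomal RNA and mitochondrial genes removed. It was 14 with DESeq2, 16 with no filter on low counts, 16 with the replicate block, 2 with limma-trend on log2(TPM + 1) and 2 with a pseudocount of 0.1, and 0 to 6 with a library left out. None was called higher in LISC under any of these. The limma-trend fits tested 31 members and 12400 genes in all. They called 151 genes lower and 258 higher on log2(TPM + 1), and 130 and 208 with the pseudocount of 0.1. Over all genes, 105 were called lower and 206 higher in LISC; these counts were 398 and 785 with DESeq2, 465 and 942 with no filter, 31 and 63 with the 1 CPM filter, 524 and 1015 with the replicate block, and 79 to 149 and 166 to 338 with a library left out. The immediate early median stayed between −1.73 and −1.34 in the fits on all libraries and ranged from −2.43 to −0.77 with a library left out. Estimates changed sign with a library left out for Ier3 (−0.31 to 0.12, above 0 without SISC replicate 1), Hspb1 (−1.36 to 0.64, with 0.08 without SISC replicate 1 and 0.64 without LISC replicate 1), Hsp90aa1 (−1.34 to 0.02, above 0 without SISC replicate 2) and Gadd45b (−0.13 to 0.57, below 0 without LISC replicate 2). Deviations of same-numbered libraries from their group means correlated at 0.648 over all tested genes, but the labels do not say what a number stands for, so the block is an alternative only. Members at least 2-fold higher in replicate 1 in both intestines numbered 5 (5.34% of all tested genes), 8 at 1.5-fold (11.5%), 0 with TPM (0.974%) and 2 with centred TPM (2.61%); those higher in replicate 2 numbered 1 (4.18%), and 3 with TPM (19.0%). Summing Hspa1a and Hspa1b and centring TPM were chosen after seeing the data. The cause of these changes was not tested.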
